A study of Mus musculus with 6 samples.

Results

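The genes described here encode proteins of the endothelial cell surface and of the contacts between endothelial cells. They also encode the ligand apelin and 1 transcription factor that maintains endothelial identity. They are Cdh5, Pecam1, Esam, Cldn5, Aplnr, Apln, Robo4, Eng, Emcn and Erg. These 10 genes were found by symbol among the 33965 genes measured in MC38 tumors, and all 10 were among the 19602 genes with enough counts to be compared. They were chosen with the difference between GB2 and PBS tumors already known, so their differences are given below as values, without a test.

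MC38 cells are an established line from a mouse colon tumor. They were grown under the skin of C57BL/6 mice, which the methods describe as female and bought at 6 weeks of age, and whose own vessels, stroma and immune cells are therefore part of each tumor. RNA-seq was performed on 3 tumors of the PBS group, also called untreated, and on 3 tumors of the GB2 group. GB2 is a prodrug in which MSA-2, an agonist of the innate immune sensor STING, is joined to artesunate, which the study used as an inhibitor of the macrophage receptor TREM2. The labels number the libraries 1 to 3 in each group without saying whether each came from 1 tumor, and each library is called a tumor here. The labels give neither the dose nor the time of collection. The methods state random assignment of mice to groups and independent experiments, without saying which mice the sequenced tumors came from. The libraries were poly-A selected and held between 64764405 and 83690056 estimated counts, and every GB2 library was larger than every PBS library. Bulk RNA-seq reads all cells of a tumor piece together, so more endothelial cells and more RNA of a gene per endothelial cell cannot be told apart. The epithelial marker Epcam was low in both groups, at 0.116 ± 0.053 FPKM (SD, n = 3) in PBS tumors and 0.392 ± 0.057 FPKM (SD, n = 3) in GB2 tumors.

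Endothelial cells line blood vessels and are held together by adherens junctions, in which VE-cadherin binds its like on the neighbouring cell, and by tight junctions built from claudins and adhesion molecules of the immunoglobulin superfamily. Their identity depends in part on transcription factors of the ETS family, of which ERG is abundant in endothelium and is known to regulate VE-cadherin. In tumors, vessels are often immature and leaky, and apelin signalling, endoglin and ROBO4 are all known to act in vessel growth or stability. In the annotation deposited with the table, 6 of the genes (Pecam1, Aplnr, Apln, Eng, Emcn and Robo4) carry the term angiogenesis. Another set of 4 genes (Pecam1, Cdh5, Esam and Cldn5) carries the KEGG pathways cell adhesion molecules and leukocyte transendothelial migration.

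The promoters were read first, because ERG and the other ETS factors bind DNA around a GGAA core. RefSeq promoter windows of 300 bases on GRCm38.p6, 250 bases before and 50 bases after each transcript start, were at hand for 6 of the genes, in 8 windows. Pecam1, Cdh5, Aplnr and Esam were not covered. GGAA on either strand is of little use for telling promoters apart, since 96.0% of all 32851 windows hold it. The longer CAGGAA, which contains GGAA, was found on either strand in 30.6% of all windows and in 5 of the 8 windows, 1 window each for Apln, Emcn, Eng, Erg and Robo4. CCGGAA, present in 14.9% of all windows, was in none of the 8. The 250 bases before the start are given for the 4 genes whose CAGGAA lies there, read 5′ to 3′ in the direction of transcription, with CAGGAA or its reverse complement TTCCTG in capitals.
Emcn, chr3:137340828-137341077, plus strand: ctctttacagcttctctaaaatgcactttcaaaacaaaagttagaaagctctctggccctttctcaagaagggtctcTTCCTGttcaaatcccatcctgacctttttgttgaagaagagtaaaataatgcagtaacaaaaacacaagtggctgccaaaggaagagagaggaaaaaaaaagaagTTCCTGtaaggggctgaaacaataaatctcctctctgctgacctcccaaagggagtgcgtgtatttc
Robo4, chr9:37401722-37401971, plus strand: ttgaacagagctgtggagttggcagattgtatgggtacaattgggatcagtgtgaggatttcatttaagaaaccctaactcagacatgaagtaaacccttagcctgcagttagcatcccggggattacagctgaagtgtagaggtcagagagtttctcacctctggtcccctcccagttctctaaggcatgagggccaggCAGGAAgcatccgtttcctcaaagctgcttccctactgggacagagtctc
Apln, chrX:48034854-48035103, minus strand: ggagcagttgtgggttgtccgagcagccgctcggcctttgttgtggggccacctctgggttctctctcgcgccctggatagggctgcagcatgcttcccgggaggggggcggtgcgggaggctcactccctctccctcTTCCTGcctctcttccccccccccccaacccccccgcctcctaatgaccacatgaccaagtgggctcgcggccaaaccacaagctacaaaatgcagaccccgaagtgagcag
Erg, 1 of its 3 starts, chr16:95459349-95459598, minus strand: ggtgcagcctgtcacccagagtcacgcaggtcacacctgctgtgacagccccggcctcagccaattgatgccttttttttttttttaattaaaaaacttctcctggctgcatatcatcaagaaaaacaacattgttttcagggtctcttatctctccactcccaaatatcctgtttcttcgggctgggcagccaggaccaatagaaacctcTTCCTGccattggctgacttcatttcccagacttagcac
Emcn held the motif at 2 places, -173 and -67 from the start, both in reverse orientation. Robo4 held it at -50 in forward orientation, Apln at -112 and Erg at -39 in reverse orientation. In Eng it lay just after the start, at position 6. A match of letters is a description of these windows and not evidence that a factor binds there.

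All 10 genes had a log2 fold change above 0 in GB2 against PBS tumors, as did 48.3% of all genes tested. The log2 fold changes ran from 0.26 for Eng to 2.52 for Aplnr, with a median of 0.92 (1.89-fold), whereas the median over all genes tested was -0.02. Read as CPM, which are counts scaled to the library total times its TMM factor (a correction for library composition), 8 of the 10 genes had all GB2 values above all PBS values, an ordering shown by 8.61% of all genes tested. The opposite ordering was shown by 0 of the 10 genes and by 6.68% of all genes tested. Since the genes were picked on this contrast, that count describes the choice. The 2 genes whose groups overlapped were Apln and Eng, and only Eng did when counts were scaled to the library total alone (9 of 10 genes apart, beside 9.91% of all genes tested). By edgeR's quasi-likelihood test, no gene of the 19602 reached an adjusted p under 0.05 and a 2-fold difference, and the smallest adjusted p was 0.166. An unadjusted p under 0.05 was found for 1360 genes, and 352 genes were called higher and 33 lower by DESeq2.

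**Figure D1:**
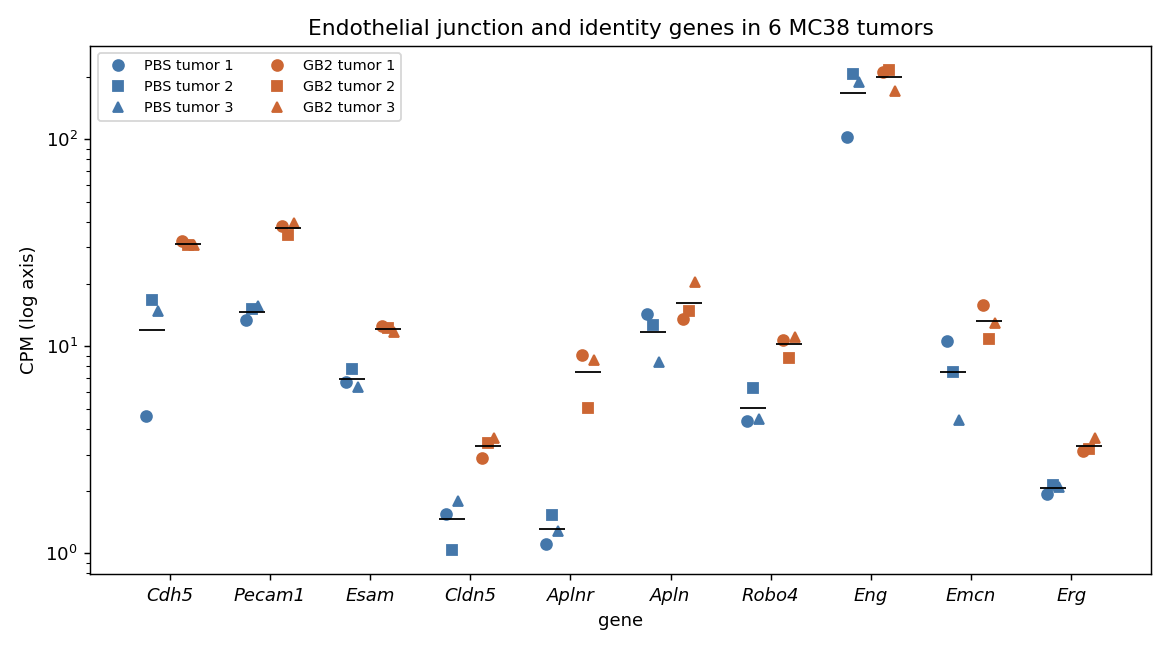
CPM on a log axis of the 10 endothelial genes in each of the 6 tumors, with PBS tumors in blue, GB2 tumors in orange and a line at each group mean. The groups are apart for 8 genes, overlap for Apln and Eng, and PBS tumor 1 lies far below the other PBS tumors for Cdh5.

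The junction proteins come first. Cdh5 (ENSMUSG00000031871, chr8:104101625-104144511 on GRCm38, plus strand) encodes VE-cadherin, the cadherin of endothelial adherens junctions. It was read at 4.58, 16.7 and 14.8 CPM in PBS tumors 1 to 3 and at 32.1, 31.0 and 30.8 CPM in GB2 tumors 1 to 3. The GB2 tumors were close to one another (31.3 ± 0.730 CPM, SD, n = 3), while the PBS tumors were spread widely (12.0 ± 6.51 CPM, SD, n = 3). PBS tumor 1 was far below the other PBS tumors. The log2 fold change was 1.38 (SE 0.43) and became 1.0 without PBS tumor 1, with the GB2 tumors still all higher.

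Pecam1 (ENSMUSG00000020717, chr11:106654217-106750628, minus strand) encodes PECAM-1, an immunoglobulin-like adhesion molecule at endothelial contacts that platelets and some leukocytes carry as well. Its values were 13.4, 15.1 and 15.6 CPM in PBS tumors and 38.1, 34.3 and 39.2 CPM in GB2 tumors. The tumors within a group differed little, and the gap between the groups was far wider than either spread. Its log2 fold change of 1.34 had the smallest standard error of the 10 genes (0.17), and leaving out single tumors moved it only between 1.29 and 1.40.

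Esam (ENSMUSG00000001946, chr9:37528078-37538319, plus strand) encodes an immunoglobulin-like molecule of endothelial tight junctions that is also found on platelets. It had 6.71, 7.81 and 6.35 CPM in PBS tumors and 12.5, 12.3 and 11.8 CPM in GB2 tumors, with a log2 fold change of 0.81 (SE 0.21). Cldn5 (ENSMUSG00000041378, chr16:18776847-18778262, plus strand) encodes claudin-5, the main claudin of endothelial tight junctions. It had 1.56, 1.04 and 1.78 CPM in PBS tumors and 2.89, 3.43 and 3.61 CPM in GB2 tumors. Neither gene's groups overlapped, although Cldn5 rests on few counts, 73 to 126 per PBS library and 243 to 307 per GB2 library. Its log2 fold change was 1.18 (SE 0.32).

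The apelin pair differed between receptor and ligand. Aplnr (ENSMUSG00000044338, chr2:85136225-85139923, plus strand) encodes the apelin receptor, a G-protein-coupled receptor of sprouting and venous endothelium. It had 1.12, 1.53 and 1.29 CPM in PBS tumors and 9.10, 5.01 and 8.55 CPM in GB2 tumors. Its log2 fold change of 2.52 (SE 0.34) was the largest of the 10 genes in this fit, though limma on log2(FPKM + 1), which compresses low genes, gave 1.16 for Aplnr and 1.26 for Cdh5. The lowest GB2 tumor, number 2, was still above every PBS tumor. The PBS libraries held only 66 to 108 counts of it, against 417 to 764 in the GB2 libraries. Apln (ENSMUSG00000037010, chrX:48025146-48034853, minus strand), which encodes the ligand apelin, had 14.3, 12.6 and 8.40 CPM in PBS tumors and 13.5, 14.8 and 20.4 CPM in GB2 tumors. GB2 tumor 1 lay below PBS tumor 1, so the groups overlapped in CPM. Scaled to the library total alone, without the TMM factor, GB2 tumor 1 (13.9) lay above PBS tumor 1 (13.1) and the groups did not overlap, as in FPKM. The log2 fold change of Apln was 0.46 (SE 0.28) and became 0.26 without GB2 tumor 3. The FPKM ratio of Apln to Aplnr was 15.1, 9.72 and 7.67 in PBS tumors and 1.74, 3.47 and 2.80 in GB2 tumors. Ligand RNA thus exceeded receptor RNA in all 6 tumors, by less in each GB2 tumor than in any PBS tumor.

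**Figure D2:**
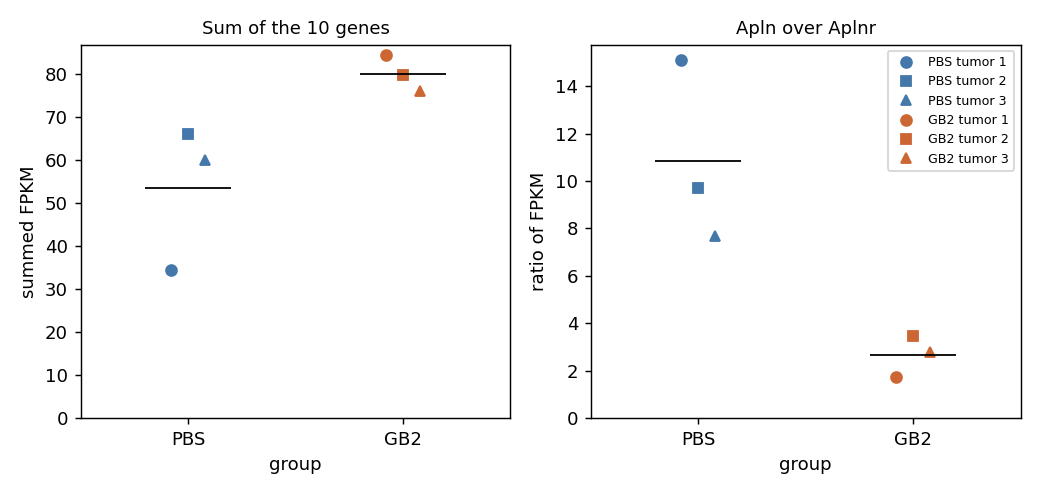
Summed FPKM of the 10 genes (left) and the FPKM ratio of Apln to Aplnr (right) for each tumor by group, with a line at each group mean. The sum is 53.4 on average in PBS and 80.0 in GB2 tumors, and the ratio is between 7.67 and 15.1 in PBS and between 1.74 and 3.47 in GB2 tumors.

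Robo4, Eng and Emcn encode surface proteins outside the junction. Robo4 (ENSMUSG00000032125, chr9:37401897-37415115, plus strand) encodes an endothelial member of the roundabout receptor family with a role in vessel stability, and its CAGGAA at -50 is shown above. It had 4.36, 6.32 and 4.44 CPM in PBS tumors and 10.8, 8.79 and 11.1 CPM in GB2 tumors, and the groups did not overlap. Its log2 fold change was 1.02 (SE 0.26). Robo4 lies near Esam on chromosome 9, with 112963 bases between the end of Robo4 and the start of Esam on GRCm38.

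Eng (ENSMUSG00000026814, chr2:32646595-32682669, plus strand) encodes endoglin, a co-receptor for ligands of the BMP and TGF-beta family that is also made by some stromal cells and macrophages. It had 102, 207 and 190 CPM in PBS tumors and 211, 216 and 171 CPM in GB2 tumors. Only PBS tumor 1 stood apart, and GB2 tumor 3 lay below PBS tumors 2 and 3. The log2 fold change of 0.26 (SE 0.28) was about the size of its error and became 0.02 without PBS tumor 1.

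Emcn (ENSMUSG00000054690, chr3:137341067-137432185, plus strand) encodes endomucin, a sialomucin of capillary and venous endothelium, and is the gene shown above with the motif at 2 places. It had 10.7, 7.49 and 4.39 CPM in PBS tumors and 15.8, 10.9 and 13.01 CPM in GB2 tumors. The groups did not overlap, but PBS tumor 1 and GB2 tumor 2 lay side by side. Its log2 fold change of 0.82 (SE 0.35) became 1.17 without PBS tumor 1 and 0.55 without PBS tumor 3.

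Erg (ENSMUSG00000040732, chr16:95359169-95586593, minus strand) is the transcription factor of the group. It had 1.94, 2.14 and 2.09 CPM in PBS tumors and 3.11, 3.20 and 3.62 CPM in GB2 tumors. Both groups were tight and apart, with 115 to 151 counts per PBS library and 261 to 308 per GB2 library. The log2 fold change was 0.68 (SE 0.27) and stayed between 0.61 and 0.73 when single tumors were left out.

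**Figure D3:**
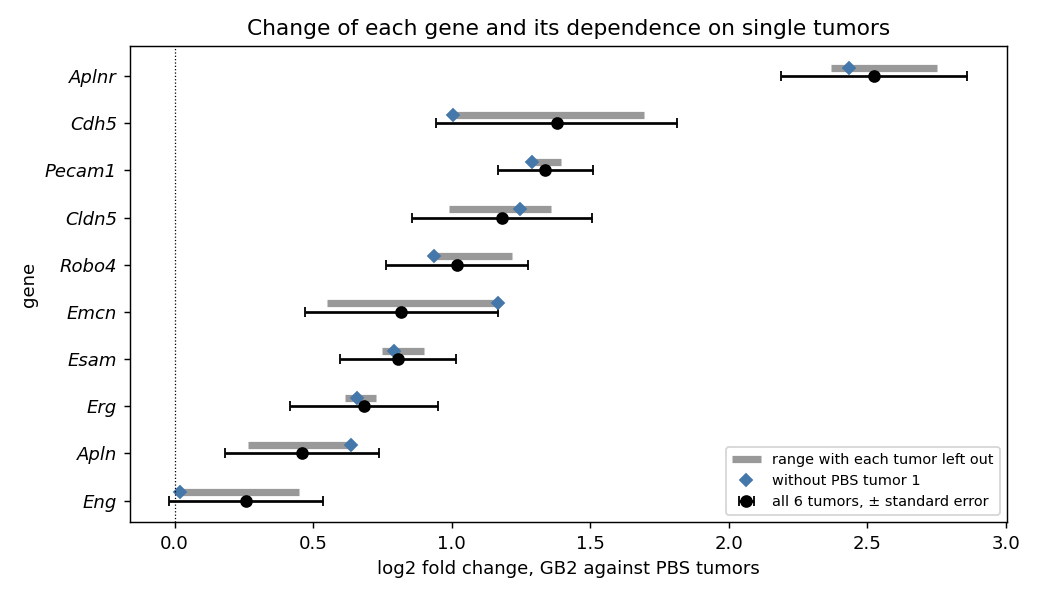
Log2 fold change of each gene in GB2 against PBS tumors from the edgeR fit (black points, bars show the standard error), with the range over fits that each leave out 1 tumor (grey) and the value without PBS tumor 1 (blue). All values are above 0, Aplnr lies highest at 2.52, and Cdh5, Eng and Emcn move most.

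FPKM values allow the genes to be set against one another. In PBS tumors Eng was the most abundant at 38.8 ± 15.0 FPKM (SD, n = 3), followed by Apln at 3.45 ± 0.741, Cdh5 at 2.72 ± 1.57, Esam at 2.26 ± 0.321 and Pecam1 at 2.201 ± 0.313. Emcn (1.27 ± 0.452 FPKM), Cldn5 (0.949 ± 0.260), Robo4 (0.884 ± 0.228), Erg (0.550 ± 0.0629) and Aplnr (0.331 ± 0.0692) followed. Neighbours in this order were apart in all tumors only for Eng and Apln, Pecam1 and Emcn, Robo4 and Erg, and Erg and Aplnr, and the other neighbours overlapped. In GB2 tumors Eng came first again at 48.2 ± 5.51 FPKM (SD, n = 3), then Cdh5 at 7.30 ± 0.284, Pecam1 at 5.85 ± 0.530, Apln at 5.05 ± 1.19 and Esam at 4.15 ± 0.147. Emcn (2.40 ± 0.490 FPKM), Cldn5 (2.29 ± 0.253), Aplnr (2.01 ± 0.627), Robo4 (1.89 ± 0.269) and Erg (0.930 ± 0.0876) completed the order. Here the neighbours that were apart were Eng and Cdh5, Cdh5 and Pecam1, Esam and Emcn, and Robo4 and Erg. Aplnr was the lowest of the 10 genes in PBS tumors and moved to place 8 in GB2 tumors.

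Eng alone made up 63.0, 74.6 and 76.1% of the summed FPKM of the 10 genes in PBS tumors and 61.4, 63.9 and 55.0% in GB2 tumors. The sum of all 10 genes was 34.4, 66.0 and 59.9 FPKM in PBS tumors and 84.3, 79.7 and 76.1 FPKM in GB2 tumors. Without Eng, the most abundant gene, it was 12.7, 16.8 and 14.3 FPKM in PBS tumors and 32.5, 28.8 and 34.3 FPKM in GB2 tumors. Relative to Cdh5, Pecam1 and Aplnr did not keep the same proportion in every tumor. The FPKM ratio of Pecam1 to Cdh5 was 1.98, 0.610 and 0.709 in PBS tumors and 0.799, 0.746 and 0.858 in GB2 tumors, so that PBS tumor 1 was the odd one and the others were alike. The ratio of Aplnr to Cdh5 overlapped between the groups, at 0.278, 0.104 and 0.0988 in PBS tumors and 0.322, 0.184 and 0.316 in GB2 tumors.

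The deviation of each tumor from its own group mean does not use the difference between the groups. In log2 CPM, PBS tumor 1 lay 1.18 below the mean of its group for Cdh5 (-1.18) and below it for Eng (-0.64), but above it for Emcn (0.59) and Apln (0.32). Thus the low values of this tumor were not shared by all of the genes. Of the 10 genes, PBS tumor 1 was the lowest PBS tumor for 6 and the highest for 2. Of 32 other endothelial markers, it was the lowest PBS tumor for 10 and the highest for 13. Mcam, for example, had 28.2 FPKM in PBS tumor 1 against 49.6 and 89.1 in PBS tumors 2 and 3, and Aqp1 had 3.12 against 6.97 and 13.03. Egfl7 was highest in PBS tumor 1, at 4.39 FPKM against 3.70 and 3.48 in PBS tumors 2 and 3. Over the 6 tumors, the deviations of 29 of the 45 pairs of genes were positively correlated, with a median Pearson r of 0.23, against 240 of 496 pairs and a median of -0.05 among the other endothelial markers. Larger medians were found for T cell (0.84), macrophage (0.53), tumor epithelium (0.51), fibroblast (0.48) and proliferation genes (0.42). The T cell and tumor epithelium values rest on few counts, for example 0 to 46 per library for Cd3e and 0 to 200 for Krt8. With the larger medians of the other lists, positive r is not particular to the 10 genes. The highest r was that of Cdh5 and Eng (0.95 over 6 tumors) but was 0.48 without PBS tumor 1. The lowest over 6 tumors was that of Esam and Cldn5, at -0.98 with or without that tumor. Without it, Cdh5 and Cldn5 were lower still (-0.998), against -0.34 over 6 tumors. Each pair shares the same 6 libraries, and these values are descriptions. For 8 of the 10 genes the PBS tumors were more variable than the GB2 tumors, as they were for 72.5% of all genes tested.

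**Figure D4:**
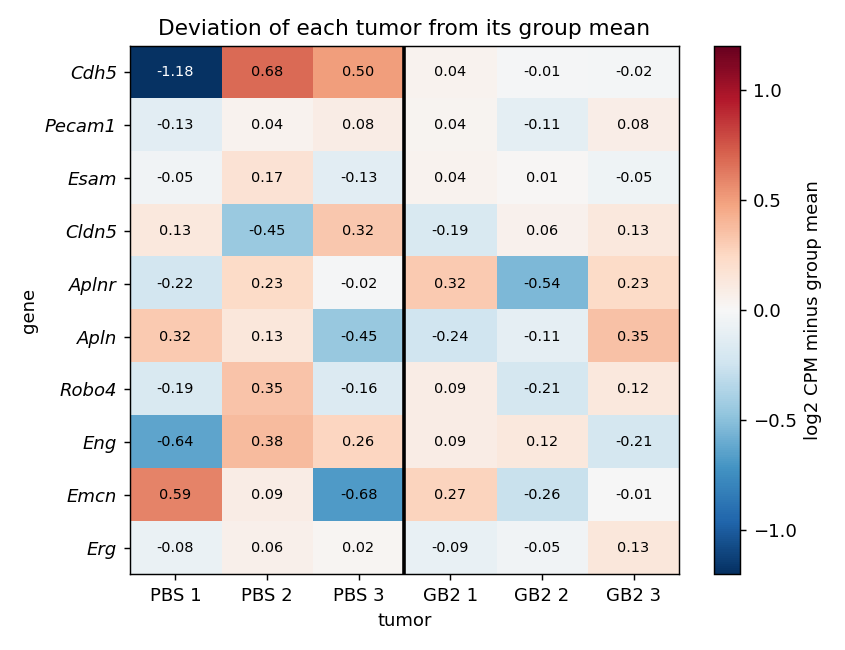
Deviation of log2 CPM from the group mean for each gene (rows) in each tumor (columns), in red above and in blue below the mean. The lowest value is -1.18 for Cdh5 in PBS tumor 1, while Emcn is highest among PBS tumors in that same tumor (0.59).

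The pattern of the genes over the tumors was summarised as the mean of their standardised log2 CPM. This mean was below 0 in every PBS and above 0 in every GB2 tumor, as the choice of the genes would give, so likeness to it largely restates a clean difference between the groups. Outside the 10 genes the closest were Lyz2 (Pearson r = 0.997 over 6 tumors), Plek (0.996), Fbln2 (0.995), Mmp13 (0.994) and Pdgfc (0.993), and 523 genes had r of at least 0.9. Lyz2, the lysozyme of macrophages and neutrophils, has a near-identical neighbour, Lyz1, with which its reads may be shared, and its log2 fold change was 2.11. No canonical endothelial marker was among these 5 genes.

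Of 32 other endothelial markers, 31 had a log2 fold change above 0, with a median of 0.92, the same to 2 decimals as that of the 10 genes. The GB2 values of 24 of the 32 were all above the PBS values, beside 8.61% of all genes tested. At an unadjusted p under 0.05 with at least a 2-fold difference, edgeR found 12 of the 32 higher and 0 lower, beside 3.74% and 0.918% of all genes tested. None of them passed edgeR's adjustment, whereas DESeq2 called 10 of the 32 higher (background 1.80%). Kdr, the main VEGF receptor of endothelium, was at 0.895 ± 0.16 FPKM (SD, n = 3) in PBS and 2.55 ± 0.26 FPKM (SD, n = 3) in GB2 tumors (log2 fold change 1.44, adjusted p 0.19 by edgeR). Tie1, an endothelial receptor kinase, had a log2 fold change of 0.98, Plvap, which builds the diaphragms of fenestrae, of 0.47, and Aqp1, a water channel, of 0.73. Mcam, the one marker more abundant than Eng, was at 55.6 ± 31 and 60.0 ± 6.8 FPKM (SD, n = 3 each). Vwf, von Willebrand factor, was the one marker with a value below 0 (-0.48, overlapping groups).

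Among 20 junction partners, 17 had values above 0, the median was 0.29 (0.17 without PBS tumor 1), and edgeR found 0 at an unadjusted p under 0.05 with at least a 2-fold difference. Of all genes tested, 48.3% were above 0 and 3.74% were higher at that threshold. The catenins that bind cadherin tails were Ctnnb1 at a log2 fold change of 0.32, Ctnnd1 at 0.37 and Ctnna1 at 0.11, and most cells of a tumor make them. Gja4, a connexin of arterial endothelium, had 1.14, and Cdh2, N-cadherin, had -0.41. Among 19 transcription factors of endothelium besides Erg, 13 were above 0 with a median of 0.14 (0.24 without GB2 tumor 2), and 3 were higher at the unadjusted threshold. Fli1, the ETS factor closest to ERG and also made by blood cells, was at 0.230 ± 0.040 FPKM (SD, n = 3) in PBS and 0.809 ± 0.17 FPKM (SD, n = 3) in GB2 tumors (log2 fold change 1.70, adjusted p 0.23 by edgeR). Sox17 had 1.48, while the widely expressed ETS factors Ets1, Ets2 and Elk3 had 0.14, -0.22 and 0.05. Gata2 had -0.67, with every GB2 tumor below every PBS tumor.

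Of 14 apelin and tip cell genes 13 could be tested, since Apela, which encodes the other ligand of the apelin receptor, was not among the genes tested. 10 of the 13 were above 0, with a median of 0.60, and 3 were higher at the unadjusted threshold. Beside these counts and those of the endoglin axis below stand 48.3% and 3.74% of all genes tested. Ednrb, an endothelin receptor, had a log2 fold change of 1.64 and an adjusted p of 0.19 by edgeR, and the tip cell gene Esm1 had -0.76 with overlapping groups. Of 16 tested genes of the endoglin axis, 9 were above 0, with a median of 0.09. That median ran from 0.07 without GB2 tumor 1 to 0.21 without PBS tumor 3. The 1 gene higher at the unadjusted threshold was Bmper, a secreted BMP modulator at very low level. Acvrl1, the endothelial receptor kinase with which endoglin acts, had -0.33 with overlapping groups, and Smad5 and Smad4, which carry the signal, had 0.23 and 0.01. The FPKM ratio of Eng to Acvrl1 was 1.16, 2.53 and 1.83 in PBS tumors and 2.61, 2.37 and 3.67 in GB2 tumors and overlapped.

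Markers of several other cell types had higher values in GB2 tumors as well. Beside the counts of genes above 0 stands 48.3% of all genes tested, and beside those that were higher at the unadjusted threshold 3.74%. All 12 macrophage markers had log2 fold changes above 0 (median 1.96), 11 of them at the unadjusted threshold, and their summed FPKM was 44.8 to 61.9 in PBS and 175 to 241 in GB2 tumors. Adgre1, the macrophage antigen F4/80, had a log2 fold change of 2.55. All 9 fibroblast markers were above 0 (median 1.55) at the unadjusted threshold, with summed FPKM of 35.6 to 63.2 and 119 to 176, and Pdgfra had 1.93. All 6 tested of 9 neutrophil markers were above 0 (median 1.78, 4 at the unadjusted threshold), with summed FPKM of 2.74 to 5.76 and 10.1 to 13.9, while Ly6g was listed at 0 in all 6 tumors. Pericyte markers, of cells that wrap capillaries, were above 0 for 11 of 12 (median 0.75, 2 at the unadjusted threshold), with summed FPKM of 29.1 to 34.7 and 40.1 to 57.0. Rgs5, which defines this list, had only 0.33, while the list ran from -0.07 for Tagln to 1.21 for Des. Of 11 platelet markers 6 were tested, 3 of them above 0 (median -0.01, 0 at the unadjusted threshold), a median that became 0.57 when PBS tumor 1 was left out and 0.47 when GB2 tumor 2 was, and Itga2b, which defines platelets, was at 0.358 ± 0.042 and 0.321 ± 0.061 FPKM (SD, n = 3 each). Of 8 tested T cell markers 1 was above 0 (median -0.42), of 5 tumor epithelium markers 5 (median 0.41), and of 10 proliferation genes 8 (median 0.16). These medians rested on single tumors, and that of T cells ran from -1.67 without GB2 tumor 3 to 0.72 without PBS tumor 2, that of tumor epithelium from 0.25 without PBS tumor 3 to 1.5 without PBS tumor 1, and that of proliferation from 0.03 without PBS tumor 3 to 0.33 without PBS tumor 1. The part of macrophages, fibroblasts, neutrophils and pericytes in the values of the 10 genes was not tested.

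**Figure D5:**
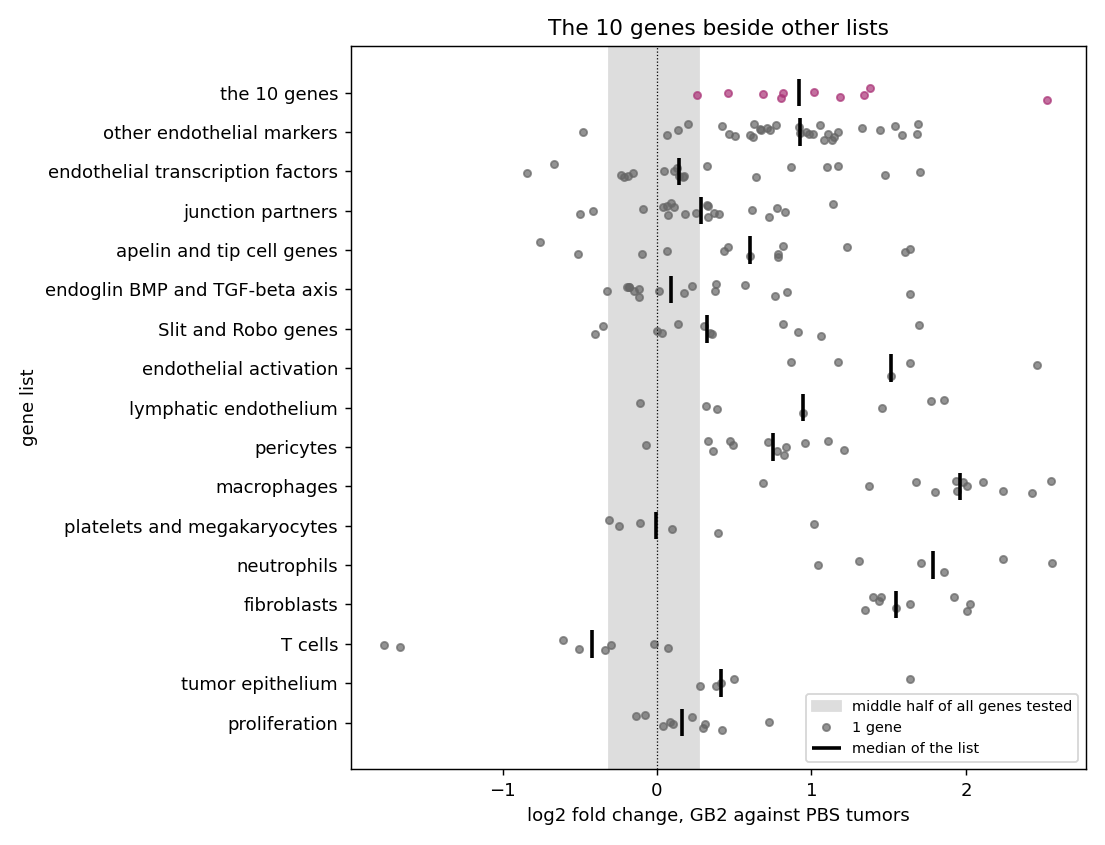
Log2 fold change in GB2 against PBS tumors of every tested gene of each list (points), the list medians (bars) and the middle 50% of all genes tested (grey band). The 10 endothelial genes and the other endothelial markers have the same median of 0.92, below those of macrophages (1.96), neutrophils (1.78) and fibroblasts (1.55) and above those of junction partners (0.29) and transcription factors (0.14).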

How the data were processed

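RNA-seq of 3 PBS and 3 GB2 tumors was analysed. Per the labels, libraries were poly-A selected and dUTP-stranded. The submitters' processing notes name cutadapt 1.9, HISAT2 2.2.1, StringTie 2.1.6, DESeq2, edgeR and mm10, without their order. For each gene the authors deposited estimated counts, which are whole numbers not scaled between tumors. Low values pile up at 4 (7017 values, against 2984 of 3 and 2017 of 5), which may mean about 4 counts per read pair, though counts were not compared with reads. The authors also deposited FPKM, scaled by them to transcript length and to the library total.

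Only 641 of 31999 gene IDs shared with GENCODE M21 (2.00%) have the same start and end in the table as on GRCm38, and none of the 10 genes does, so positions were taken from GENCODE M21 by Ensembl ID, and promoters from RefSeq on GRCm38.p6.

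The 10 genes and all lists were chosen with earlier results of these data known, and the 10 genes were therefore given no test. Counts were fitted in R 4.3.3 with edgeR 4.0.16: filterByExpr with a minimum count of 10, TMM scaling, glmQLFit and glmQLFTest with Benjamini-Hochberg adjustment over all genes tested. Standard errors come from the test statistic, and a prior count of 2 entered log2 CPM. The biological coefficient of variation was 40.5%, which limits what 3 tumors per group can show. p-values measure the spread between these tumors. Alternatives used DESeq2 1.42.0, limma 3.58.1 on log2(FPKM + 1), other scalings, no filter, counts divided by 4, a replicate block, and each tumor left out. Computations were tested on simulated data. Named genes were drawn from the 10 genes and from each list's defining gene, 3 most abundant genes and gene with the smallest p in each direction. The 5 genes most like the mean of the 10 were named too. Egfl7 was named outside this rule, as an example of a marker highest in PBS tumor 1.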

Additional observations from a re-analysis of the deposited data

How the results depend on the processing

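The 10 genes were chosen with this contrast known and the alternatives reuse the same tumors, so an unchanged direction was largely given by the choice. None of the 10 genes changed direction under any alternative. By limma 5 of them moved by more than the spread between tumors, Pecam1 to 1.10, Aplnr to 1.16, Cldn5 to 0.76, Robo4 to 0.62 and Erg to 0.32. Their median log2 fold change of 0.92 was 0.64 by limma on log2(FPKM + 1), a scale that compresses low genes, and 0.84 to 1.03 when single tumors were left out. By limma the medians were 0.49 for other endothelial markers, 0.27 for endothelial activation, 0.32 for lymphatic endothelium, 0.07 for Slit and Robo genes, 0.15 for junction partners, 0.11 for tumor epithelium, -0.04 for T cells, 0.27 for proliferation, 0.44 for pericytes, 1.38 for macrophages, 0.55 for neutrophils and 1.23 for fibroblasts. With counts divided by 4 the median of T cells was 0.02, that of platelets 0.26 and that of the endoglin axis 0.01. The endoglin axis median was 0.02 with no filter and 0.15 with scaling by library size only. Without single tumors the median of other endothelial markers was 0.79 to 0.95 and that of pericytes 0.57 to 0.81. Without PBS tumor 1, Eng went from 0.26 to 0.02.

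DESeq2 called 385 genes and edgeR 0, and the cause was not tested. Genes at an unadjusted p under 0.05 and at least 2-fold numbered 913, against 129 by limma and 707 to 1380 without single tumors, the highest without PBS tumor 3. The 913 were 733 higher and 180 lower, against 832 and 548 without PBS tumor 3 and 810 and 310 without PBS tumor 2.

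The labels do not say whether tumors of the same number belong together. The deviations of tumors 1, 2 and 3 of the 2 groups had r of 0.03, 0.15 and -0.25 across genes. No r of differently numbered tumors was set beside these, so they cannot decide whether the numbers pair tumors. With the number as a replicate block, the median of the 10 genes was 0.96, 0 genes were called, and 636 genes were higher and 128 lower at the unadjusted threshold.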

Other observations

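Further groups of vessel genes were read. Adhesion molecules of activated endothelium were low throughout, with a summed FPKM of 0.375 to 1.06 in PBS and 1.53 to 2.56 in GB2 tumors. All 5 tested of 6 had log2 fold changes above 0 (median 1.52), and 2 of them passed the unadjusted threshold in the edgeR fit. Beside the counts in this section stand 48.3% of all genes tested above 0 and 3.74% higher at that threshold. Vcam1, which binds leukocyte integrins, was at 0.179 ± 0.072 FPKM (SD, n = 3) in PBS and 0.593 ± 0.27 FPKM (SD, n = 3) in GB2 tumors. Icam1 had a log2 fold change of 0.87, and Sele, E-selectin, was near 0 FPKM in both groups.

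Of 7 tested lymphatic markers 6 were above 0 (median 0.95). Pdpn, podoplanin, which fibroblasts also make, had 1.46, and Flt4, a VEGF receptor, had 0.95. Prox1, the transcription factor that defines lymphatic endothelium, was at 0.427 ± 0.054 and 0.415 ± 0.056 FPKM (SD, n = 3 each) with overlapping groups. Of 12 Slit and Robo genes 10 were above 0 (median 0.32, 1 at the unadjusted threshold). Slit3, a secreted ligand of the family, had 1.70 with an adjusted p of 0.19 by edgeR, Slit2 had 0.35, and the family member Robo1 had 0.04 where Robo4 had 1.02.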
